A study of Mus musculus with 28 samples.

Results

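Heme breakdown, iron storage and iron transport were examined through 9 genes of the 25719 counted in mouse tail tendon. They were chosen by known function, with earlier results of these data known. Each handles heme or iron, either on the route that begins with Cd163 or in transferrin uptake. Cd163 is the macrophage receptor that takes up haptoglobin-bound hemoglobin. All 9 were present in the files and all 9 passed the filter on low counts in both cohorts. Whole tendon fascicles were homogenized and sequenced as bulk RNA, 1 mouse per library, from 7 WT and 8 Fosl-2 Tg mice of an early cohort (6 to 8 weeks old) and from 6 WT and 7 Fosl-2 Tg mice of an established cohort (over 14 weeks old). The mice were C57BL/6, and WT mice were nontransgenic animals of the same breeding. Fosl-2 Tg mice carry a randomly inserted murine *Fosl2* gene with shortened untranslated ends, driven by the MHC class I promoter H2Kb, which is active in most cell types, and joined to eGFP. The early cohort held 15 males and no females, and the established cohort held 11 females and 1 male per genotype, so that stage and sex cannot be told apart.

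Heme released from hemoglobin is opened by heme oxygenase, which yields iron, carbon monoxide and biliverdin. The iron is stored in ferritin, a shell of heavy and light chains, or leaves the cell through ferroportin. Cells take up iron bound to transferrin through the transferrin receptor. Much of this is set after transcription: when iron is scarce, iron regulatory proteins bind a hairpin called the iron-responsive element, which blocks translation when it lies before the coding sequence and protects the mRNA from decay when it lies after it. In tissues, macrophages that recycle red blood cells are the best known site of this route, and bulk RNA does not separate them from tendon cells.

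The hairpins are shown because they divide the members into those for which mRNA is known to be one of several layers of control and those without such an element. The search on the mRNA strand was for the letters CAGTG and 1 further base as the loop, a C standing 6 bases ahead of them, and the 5 bases before the loop pairing with the 5 after it. They were found in the untranslated parts of 4 of the 9 members, in 1 annotated transcript per gene (GRCm39, GENCODE M39), and not in those of *Hmox1*, *Blvrb*, *Slc48a1*, *Slc11a1* or *Trf*. Capitals mark the start of the loop, and all sequences run 5′ to 3′ on the gene's strand.
Slc40a1, 5′ untranslated region, chr1:45964624-45964653, minus strand: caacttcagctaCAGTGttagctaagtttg
Ftl1, 5′ untranslated region, chr7:45109202-45109231, minus strand: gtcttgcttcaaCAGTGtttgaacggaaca
Fth1, 5′ untranslated region, chr19:9960096-9960125, plus strand: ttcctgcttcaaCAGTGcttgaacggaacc
Tfrc, 3′ untranslated region, first of 4, chr16:32450037-32450066, plus strand: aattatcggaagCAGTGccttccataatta
Tfrc, 3′ untranslated region, last of 4, chr16:32450528-32450557, plus strand: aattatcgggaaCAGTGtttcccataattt

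The same letters with the same pairing were present in the 5′ untranslated region of 0.131% of 20638 transcripts and in the 3′ untranslated region of 0.580% of 21539. Whether the hairpins were bound in these mice was not measured. In the promoter windows given by RefSeq (GRCm38.p6, 250 bases before to 50 after the start), the AP-1 letters TGACTCA or TGAGTCA occurred in 5.20% of all windows and the antioxidant response letters, TGAC and GC set 3 bases apart, in 12.4%, on either strand, where a stretch may hold both. Windows were at hand for *Blvrb*, *Slc11a1*, *Fth1*, *Ftl1* and *Tfrc*, and none of them held either motif, which says only that these letters are not in those windows.

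Levels are given in CPM, the read count scaled to a common library size after TMM scaling over all 28 libraries. Libraries held between 9645598 and 66894396 counted reads. *Fosl2* itself overlapped between genotypes in both cohorts. Its log2 difference was 0.20 ± 0.24 (SE, FDR 0.918) in early and 0.38 ± 0.15 (FDR 0.141) in established mice by edgeR, so that its count did not separate the genotypes. The tendon markers *Scx* and *Tnmd* were detected in every group, at means of 34.4 to 123 CPM and 211 to 2075 CPM.

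To compare genes with each other, CPM was divided by the length of the annotated exons. In established WT mice, the ferritin chains ranked highest, with *Ftl1* at 268 ± 23.3 CPM per kilobase and *Fth1* at 143 ± 12.03 (mean ± SD, n = 6). *Slc48a1* followed at 36.8 ± 2.21 CPM per kilobase. *Hmox1* at 6.02 ± 1.58, *Blvrb* at 6.00 ± 1.11, *Trf* at 4.85 ± 0.54 and *Tfrc* at 3.68 ± 2.84 CPM per kilobase came next, and their ranges over mice overlapped. *Slc40a1* at 1.88 ± 0.39 and *Slc11a1* at 1.19 ± 0.22 CPM per kilobase were the lowest, with ranges that touched.

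**Figure D1:**
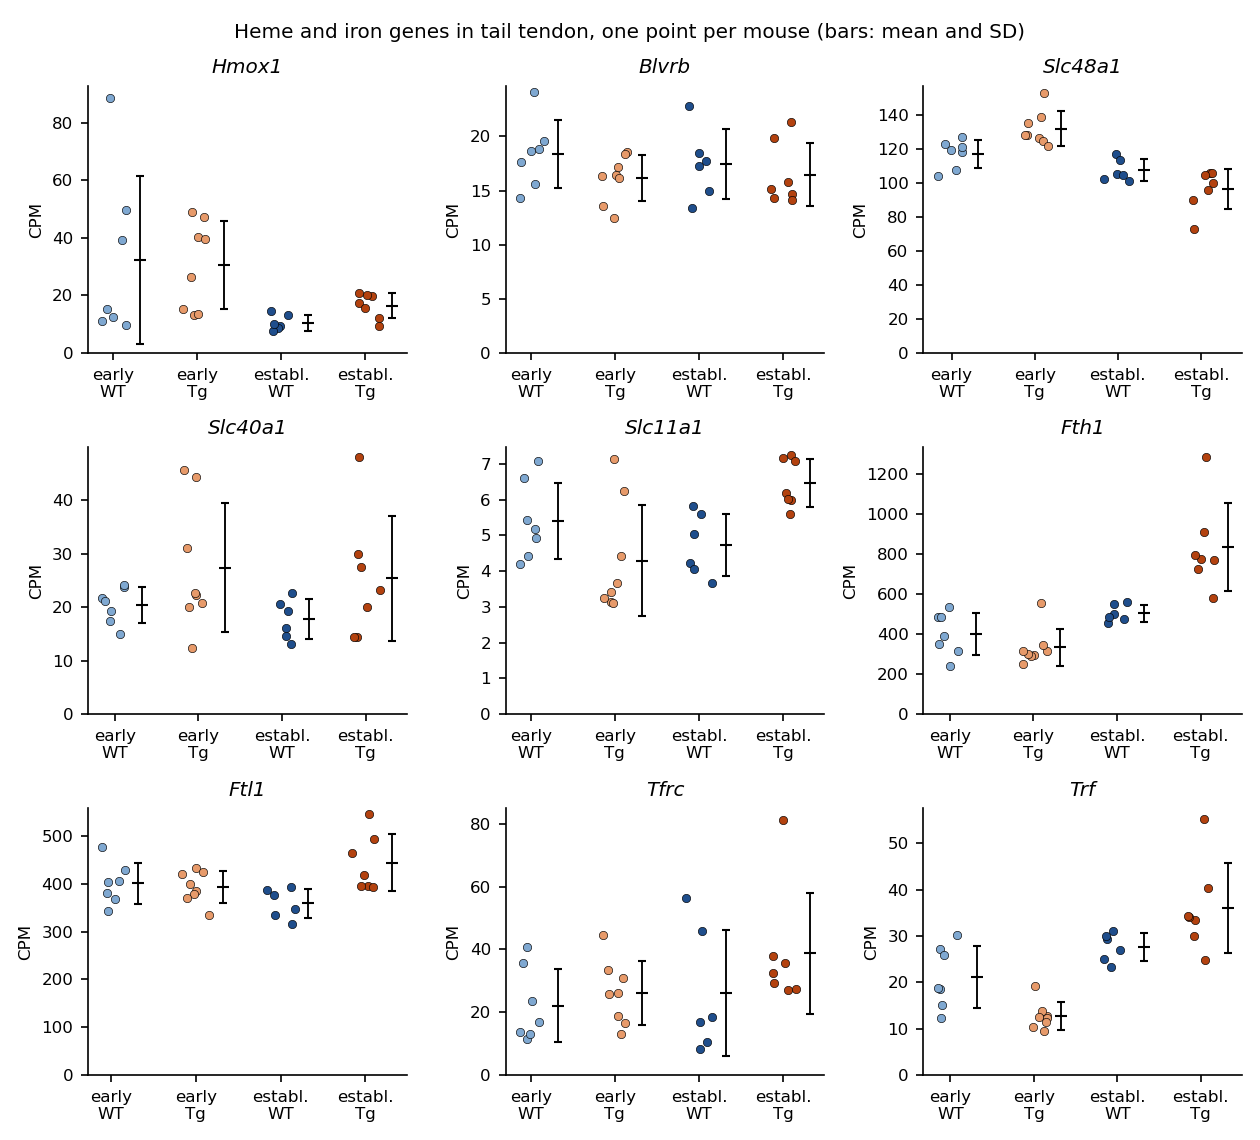
Level of each of the 9 members in CPM (vertical axes, from 0), with 1 point per mouse in the early WT (n = 7), early Fosl-2 Tg (n = 8), established WT (n = 6) and established Fosl-2 Tg (n = 7) groups, labelled Tg for short; bars are mean ± SD. In established mice every Fosl-2 Tg point lies above every WT point for Fth1 and Ftl1, while early Hmox1 and established Tfrc spread widely within a genotype.

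The first question was whether the genotypes differed within each cohort. In established mice, Fosl-2 Tg tendon held more *Fth1* mRNA, and this was the single member past the threshold (FDR of at most 0.05, edgeR's quasi-likelihood test, Benjamini-Hochberg adjustment over all genes tested). That is 1 of 9 members, where 6.51% of all 15862 genes tested passed, 3.14% as higher and 3.37% as lower in Fosl-2 Tg mice. The members' median log2 difference was 0.45, against 0.01 over all genes tested, and 7 of 9 were higher on average in Fosl-2 Tg mice. Genotypes did not overlap for *Fth1* and *Ftl1*, which is 2 of 9, against 3.81% of all genes. In early mice, 0 of 9 members passed, with 0.0396% of 15138 genes passing over the whole table. DESeq2 and limma voom likewise called 0 of 9 early. Below an unadjusted p of 0.05 by edgeR were 2 of 9 members early (*Slc48a1* and *Trf*), against 6.06% of all genes, and 5 of 9 in established mice, against 26.6%. No member separated the early genotypes, as was the case for all but 0.0528% of genes.

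The second question was whether the genotype difference itself changed between cohorts. The interaction test, a single fit of the 4 groups, called 2 of 9 members, *Fth1* and *Trf*, where 7.43% of 16082 genes passed. Both had a lower mean in Fosl-2 Tg than in WT mice early and a higher mean in established mice. The members' median interaction was 0.35 on the log2 scale, against 0.02 over all genes. Both calls ended when the macrophage marker score was added as a covariate (0 of 9 members, FDR 0.272 for *Fth1* and 0.230 for *Trf*), and when the first 6 early libraries by library number were left out (FDR 0.086 and 0.084). Over all 13 alternative fits the interaction stayed at or above 0.66 for *Fth1* and 0.77 for *Trf*. All 19 macrophage markers tested had a positive interaction themselves, so that the fit with their score cannot tell the marker and member changes apart.

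**Figure D2:**
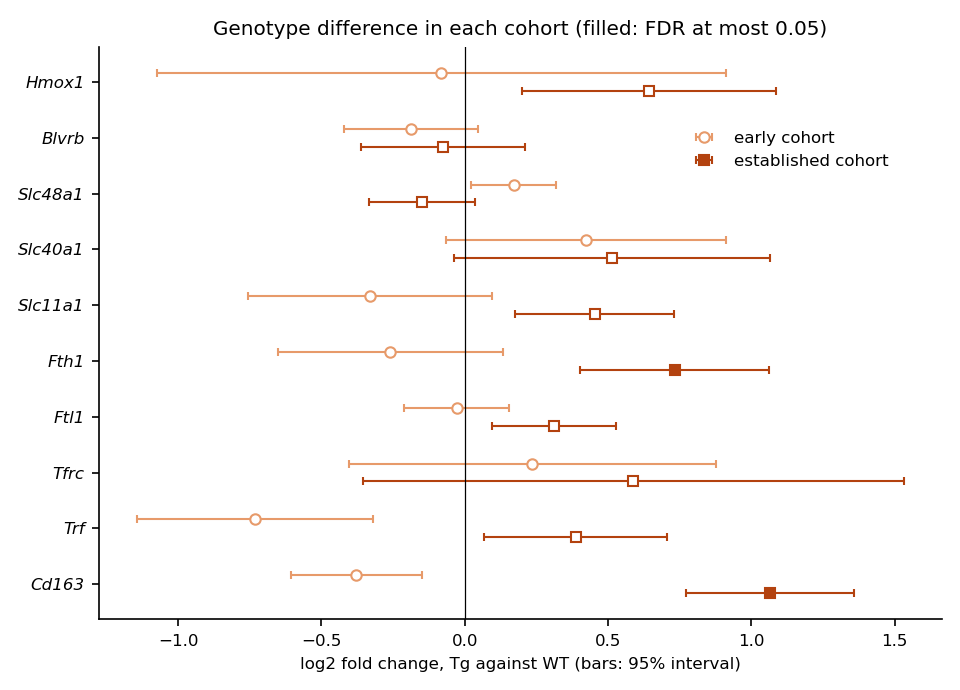
Log2 fold change between Fosl-2 Tg and WT mice (horizontal axis) for the 9 members and Cd163, as circles for the early and squares for the established cohort; bars are 95% intervals from the same test, and filled symbols have an FDR of at most 0.05. Only Fth1 and Cd163 are filled, both in the established cohort, and Trf and Fth1 lie on opposite sides of 0 in the cohorts.

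The storage genes are taken first. *Fth1* (chr19:9957911-9962462, plus strand) encodes the ferritin heavy chain, which oxidizes iron on entry. In established WT mice it ranged from 455 through a median of 491 to 561 CPM, and in established Fosl-2 Tg mice from 582 through 776 to 1284 CPM. All 7 Fosl-2 Tg mice lay above the highest WT mouse, and the highest of them, replicate 3, stood well clear of the next at 909 CPM. The log2 fold change was 0.73 ± 0.15 (SE, FDR 0.020 by edgeR), a 1.66-fold rise with a 95% interval of 1.32 to 2.09 from the same test. The call held in all 14 alternative fits of the established cohort and in all 13 fits that left out 1 mouse, with log2 fold changes between 0.60 and 0.80.

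Early *Fth1* gave another picture. WT mice ranged from 241 through 388 to 533 CPM and Fosl-2 Tg mice from 252 through 308 to 556 CPM, so that the groups overlapped over nearly their whole range. The log2 difference was -0.26 ± 0.19 (SE, FDR 0.863, edgeR). WT replicates 1 to 3, from the first libraries by number, lay at 485 to 533 CPM, above the 241 to 388 CPM of the other 4 WT mice. Fosl-2 Tg mice showed no such split, with 252 to 556 CPM (median 296) in the first 3 libraries and 291 to 344 CPM (median 314) in the other 5. The difference was -0.02 without the first 6 early libraries. The genotype difference was larger in established than in early mice by 0.99 ± 0.25 on the log2 scale (FDR 0.019, edgeR).

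*Ftl1* (chr7:45107367-45109308, minus strand) encodes the light chain, which helps the iron core to form. Established WT mice ranged from 315 through 362 to 394 CPM and established Fosl-2 Tg mice from 394 through 418 to 547 CPM. The groups met without overlapping, since the lowest Fosl-2 Tg mouse and the highest WT mouse differed by less than 1 CPM. The log2 difference of 0.31 ± 0.10 (SE) missed the threshold (FDR 0.078, edgeR). DESeq2, limma voom, upper-quartile scaling and the fit of all 28 libraries put it past the threshold. In early mice the genotypes overlapped, at 343 to 478 CPM in WT and 336 to 433 CPM in Fosl-2 Tg mice (log2 difference -0.03 ± 0.09).

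The count of *Fth1* per count of *Ftl1* also differed between the groups. This ratio ran from 1.18 through a median of 1.44 to 1.51 in established WT mice and from 1.39 through 1.94 to 2.35 in established Fosl-2 Tg mice. In early mice it ran from 0.66 to 1.24 (WT) and from 0.65 to 1.28 (Fosl-2 Tg). The early genotypes shared almost the same range of the ratio, and the established groups lay mostly above both. The ratio compares read counts, not molecules, and both chains have processed pseudogenes whose reads may be shared with them, depending on a counting option that is not given in the sources used here.

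**Figure D3:**
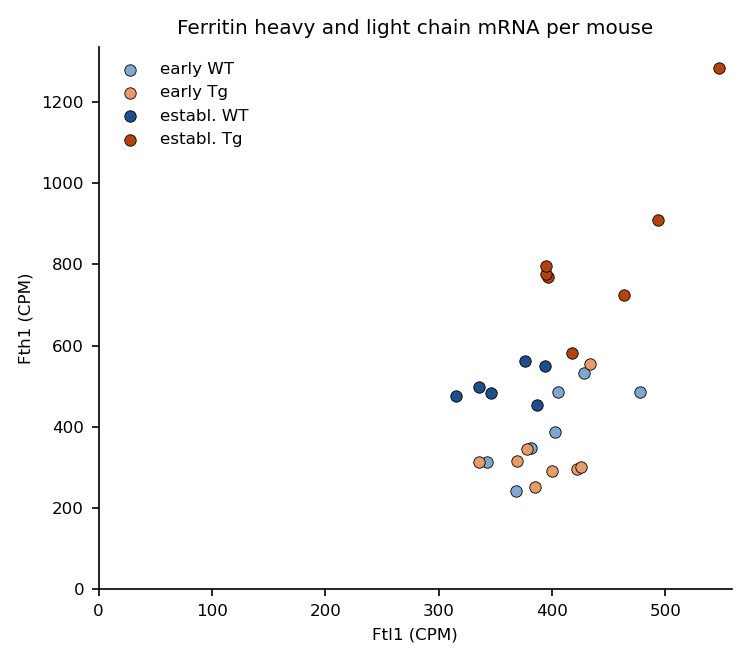
Fth1 (vertical axis, CPM) against Ftl1 (horizontal axis, CPM), with 1 point per mouse and both axes from 0. The 7 established Fosl-2 Tg mice lie at or above 582 CPM of Fth1, while the early mice of both genotypes lie at or below 556 CPM over a similar range of Ftl1.

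Cell type markers were read beside *Fth1*. Macrophage markers summed to between 892 and 1451 CPM over the list of 20 genes in established WT mice and to between 1202 and 1846 CPM in established Fosl-2 Tg mice. Of 19 tested, 15 were higher on average in established Fosl-2 Tg mice, 5 of them below an unadjusted p of 0.05 by edgeR (26.6% of all genes). Past the threshold were 2, *Cd163* and *Lyve1*, against 6.51% of all genes. In early mice 18 of 19 were lower on average in Fosl-2 Tg mice and 0 passed the threshold by edgeR, with 13 below an unadjusted p of 0.05 (6.06% of all genes). In the interaction all 19 were positive, with a median of 0.50 on the log2 scale. There 3 passed by edgeR (*Mrc1*, *Cd163* and *Adgre1*), against 7.43% of all genes. *Spic*, the regulator of red-pulp macrophages that recycle red blood cells, averaged 0.02 to 0.11 CPM over the groups. With the macrophage score as a covariate, the established *Fth1* log2 fold change was 0.79 (FDR 0.016, edgeR). Tendon markers differed more than macrophage markers, as all 10 were lower on average in established Fosl-2 Tg mice, 4 of them past the threshold (*Col1a1*, *Col1a2*, *Scx* and *Tnmd*). The tendon list summed to 101556 to 192242 CPM in established WT and to 7228 to 81160 CPM in established Fosl-2 Tg mice, and its part in the *Fth1* result was not tested. In bulk tissue, fewer cells of a type and less RNA per cell cannot be told apart.

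Neither heme breakdown gene passed in edgeR's test as designed in either cohort. *Hmox1* (chr8:75820241-75827217, plus strand) encodes the inducible heme oxygenase. Established WT mice ranged from 7.49 through 9.80 to 14.7 CPM and Fosl-2 Tg mice from 9.22 through 17.5 to 20.7 CPM. In 5 of 7 Fosl-2 Tg mice it exceeded the highest WT mouse, and replicates 3 and 4 lay within the WT range. The log2 difference was 0.64 ± 0.21 (SE, FDR 0.074, edgeR), with a 95% interval of 1.15-fold to 2.12-fold. It passed in 4 of 14 alternative fits, with a lowest FDR of 0.025, and without Fosl-2 Tg replicate 4 (FDR 0.031, edgeR).

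In early mice *Hmox1* was low in the first libraries of both genotypes. WT mice ranged from 9.78 through 15.3 to 88.4 CPM and Fosl-2 Tg mice from 13.3 through 32.9 to 49.1 CPM. Replicates 1 to 3 of both genotypes, which carry the lowest library numbers in the labels, held 9.78 to 12.7 CPM (WT) and 13.3 to 15.3 CPM (Fosl-2 Tg). The other 4 WT mice held 15.3 to 88.4 CPM and the other 5 Fosl-2 Tg mice 26.3 to 49.1 CPM. The log2 difference of -0.08 ± 0.47 (SE, FDR 0.983, edgeR) changed sign when library number was a covariate (0.01) and when WT replicate 6, at 88.4 CPM, was left out (0.41). What the library number stands for is not given in the labels.

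*Blvrb* (chr7:27147275-27165569, plus strand) encodes biliverdin reductase B, which reduces biliverdin and flavins. It varied little, with means of 18.4 ± 3.14 (SD, n = 7) and 16.1 ± 2.14 CPM (n = 8) in early WT and Fosl-2 Tg mice and 17.4 ± 3.23 (n = 6) and 16.5 ± 2.89 CPM (n = 7) in established mice. The established fold lay between 0.78 and 1.16 (95% interval, FDR 0.741 by edgeR).

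Among the transport genes, *Slc48a1* (chr15:97676401-97690573, plus strand) encodes the transporter that carries heme out of lysosomes and phagosomes. Early WT mice ranged from 104 through 120 to 127 CPM and early Fosl-2 Tg mice from 122 through 128 to 153 CPM. All 8 Fosl-2 Tg mice were above the WT mean. Established WT mice ranged from 101 through 105 to 117 CPM and Fosl-2 Tg mice from 73.2 through 100.2 to 106 CPM, and all 7 were below the WT mean. Neither cohort passed (early log2 difference 0.17 ± 0.07, FDR 0.771; established -0.15 ± 0.09, FDR 0.277; edgeR). The change between cohorts was -0.33 ± 0.11 (SE) and fell just short (FDR 0.054, edgeR). It passed in 7 of 13 alternative fits and in 4 of 28 that left out 1 mouse.

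*Slc40a1* (chr1:45947211-45965683, minus strand) encodes ferroportin, the iron exporter. Its Fosl-2 Tg mice spread more than WT mice in both cohorts. Early WT mice ranged from 15.0 through 21.2 to 24.1 CPM and early Fosl-2 Tg mice from 12.3 through 22.4 to 45.5 CPM. Established WT mice ranged from 13.1 through 17.7 to 22.7 CPM and established Fosl-2 Tg mice from 14.4 through 23.2 to 48.1 CPM. The genotypes overlapped throughout, with log2 differences of 0.42 ± 0.23 (FDR 0.834) and 0.51 ± 0.26 (FDR 0.219) by edgeR. The established 95% interval reached from 0.97-fold to 2.09-fold.

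*Slc11a1* (chr1:74414303-74425448, plus strand) encodes a metal transporter of the phagosome of macrophages, and it was the least abundant member, with 33 to 343 reads per library. Established WT mice ranged from 3.67 through 4.63 to 5.82 CPM and Fosl-2 Tg mice from 5.59 through 6.20 to 7.25 CPM. Of the 7 Fosl-2 Tg mice, 6 exceeded the highest WT mouse. The log2 difference was 0.45 ± 0.13 (SE), and missed the threshold (FDR 0.053, edgeR). It passed in 5 of 14 alternative fits, with a lowest FDR of 0.012. Early WT mice ranged from 4.21 through 5.16 to 7.07 CPM, and 5 of 8 early Fosl-2 Tg mice lay below the lowest of them (log2 difference -0.33 ± 0.20, FDR 0.847). The change between cohorts was 0.78 ± 0.25 (FDR 0.051, edgeR), and passed in 6 of 13 alternative fits and in 8 of 28 that left out 1 mouse.

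The transferrin pair differed in kind. *Trf* (chr9:103081200-103107814, minus strand) encodes transferrin, the iron carrier of plasma, which is made mainly in liver and also in glia. Early WT mice ranged from 12.4 through 18.7 to 30.3 CPM and early Fosl-2 Tg mice from 9.49 through 12.3 to 19.2 CPM. All 8 Fosl-2 Tg mice were below the WT mean and 4 below the lowest WT mouse. The early log2 difference of -0.73 ± 0.19 (SE) had the lowest early p of the members before adjustment (0.0016) and did not pass over all genes (FDR 0.449, edgeR). In established mice the order turned, with 23.2 through 28.1 to 31.1 CPM in WT and 24.9 through 34.1 to 55.3 CPM in Fosl-2 Tg mice (log2 difference 0.39 ± 0.15, FDR 0.122). The change between cohorts was 1.11 ± 0.26 on the log2 scale (FDR 0.012, edgeR), the largest of the members.

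Early *Trf* and library number moved together in WT mice. The first 3 WT libraries held 25.8 to 30.3 CPM and the other 4 WT mice 12.4 to 18.7 CPM. In Fosl-2 Tg mice the corresponding ranges were 10.3 to 19.2 CPM and 9.49 to 13.7 CPM. Without these 6 libraries the early difference was -0.42 and the change between cohorts 0.81 on the log2 scale. Schwann cell markers summed to 320 to 720 CPM in early WT and 337 to 481 CPM in early Fosl-2 Tg mice, all 8 tested being lower on average in Fosl-2 Tg mice and 0 past the threshold by edgeR or below an unadjusted p of 0.05. In established mice 6 of 8 were higher on average in Fosl-2 Tg mice (median log2 difference 0.54), and 0 passed by edgeR, with 2 below an unadjusted p of 0.05. In the interaction 7 of 9 were positive (median 1.07) and 1 passed by edgeR, *Mbp*, against 7.43% of all genes. The list summed to 310 to 456 CPM in established WT and 281 to 733 CPM in established Fosl-2 Tg mice. *Trf* and the Schwann score had r = 0.72 among established and -0.21 among early mice, and pooled the relation did not pass (r = 0.20, rho = 0.06, permutation p = 0.398 and 0.775, adjusted 0.650 and 0.951). Established Fosl-2 Tg replicate 6 had the highest Schwann score (4.75) and the highest *Trf* (55.3 CPM) of its group. Without the 2 mice farthest from the median of the score, the pooled r was -0.24. The part of these markers in the *Trf* result was not tested.

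*Tfrc* (chr16:32427556-32451612, plus strand) encodes the transferrin receptor, which is abundant in dividing cells, red cell precursors and muscle. Established WT mice ranged from 8.29 through 17.7 to 56.4 CPM and Fosl-2 Tg mice from 27.0 through 32.5 to 81.3 CPM. The WT mice fell into 4 mice up to 18.6 CPM and 2 at 45.8 and 56.4 CPM, and 6 of 7 Fosl-2 Tg mice lay between those sets. The log2 difference was 0.59 ± 0.44 (SE, FDR 0.405, edgeR), with a 95% interval from 0.78-fold to 2.89-fold. It was 0.29 without Fosl-2 Tg replicate 7 and 0.96 without WT replicate 6. With the muscle score as a covariate it was 1.16 (FDR 0.026, edgeR). Early mice ranged from 11.4 to 40.6 CPM (WT) and from 13.1 to 44.6 CPM (Fosl-2 Tg), a log2 difference of 0.24 ± 0.30 (FDR 0.921).

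How the members varied among mice of one group was examined with deviations from the group mean in log2 CPM, each member being set against *Cd163* and 5 marker scores. Of 54 relations over 28 mice, 7 had an adjusted p of r of at most 0.05, and 4 an adjusted p of rho (*Tfrc* and *Slc48a1*, each with the muscle and the adipocyte score; permutation within groups, two-sided, 100000 resamples). All 7 were with the muscle or adipocyte score. These scores tended to be high in the same mice, so that their relations are not separate results. For example, muscle and adipocyte scores were 9.57 and 2.81 in established WT replicate 6 and 1.84 and -0.33 in replicate 4. *Tfrc* followed the muscle score most closely, with r = 0.81 and rho = 0.79 (permutation p = 1e-05, the smallest the resamples can give, and 3e-05, adjusted 0.00054 and 0.0011). The relation kept r = 0.75 without the 2 mice farthest from the median, and stood at 0.88 in early and 0.75 in established mice. *Hmox1* followed the muscle score at r = 0.53 and rho = 0.51 (permutation p = 0.0037 and 0.0063, adjusted 0.040 and 0.057). *Slc48a1* ran against it, with r = -0.57 and rho = -0.58 (permutation p = 0.0011 and 0.0019, adjusted 0.017 and 0.029). *Trf* ran against it as well, with r = -0.52 and rho = -0.54 (permutation p = 0.0053 and 0.0056, adjusted 0.046 and 0.057). Without the 2 farthest mice r was 0.56, -0.57 and -0.56 for these 3 genes.

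The first 6 early libraries were low in *Hmox1*, and 5 of them lay below their group mean in the muscle score. Without them r with the muscle score was 0.32 for *Hmox1*, -0.53 for *Slc48a1*, -0.48 for *Trf* and 0.76 for *Tfrc* over 22 mice. Within the other 9 early mice r was 0.03 for *Hmox1*, 0.33 for *Slc48a1*, 0.04 for *Trf* and 0.80 for *Tfrc*, and within the first 6 it was 0.03, -0.16, 0.36 and 0.64. Of the 4 relations, that of *Tfrc* kept its sign and most of its size within both sets of early libraries. The other 3 were near 0 or changed sign in at least 1 of these early sets. Among established mice r was 0.60 for *Hmox1*, -0.68 for *Slc48a1*, -0.64 for *Trf* and 0.75 for *Tfrc*.

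The muscle markers were present in very unequal amounts. The 10 genes, among them the actin *Acta1* and the creatine kinase *Ckm*, summed to between 54.0 and 16120 CPM in established WT and to between 39.7 and 5558 CPM in established Fosl-2 Tg mice. In early mice they summed to between 69.2 and 8429 CPM over both genotypes. None of the 10 passed the threshold in either cohort by edgeR, with 0 early and 1 established below an unadjusted p of 0.05. Of the 10, 9 were higher on average in early Fosl-2 Tg mice (median log2 difference 0.40), and all 10 were lower in established Fosl-2 Tg mice (median -1.74). The adipocyte score rested on at most 3 genes that passed the filter. For none of the 9 members did the pooled relation with *Cd163* pass, and *Fth1* stood at r = 0.01 and rho = 0.04 with it (permutation p = 0.947 and 0.829, adjusted 0.947 and 0.964). *Tfrc* stood at r = 0.55 with *Cd163* among established and -0.15 among early mice. The relation of *Fth1* with the macrophage score was r = 0.81 among early and -0.29 among established mice, and pooled it did not pass (r = 0.37, rho = 0.32, permutation p = 0.056 and 0.113, adjusted 0.273 and 0.377). Without the 2 mice farthest from the median of the score, the pooled r was 0.26. Its dependence on library number was not tested. The relation of *Slc11a1* with the macrophage score did not pass either (pooled r = 0.45, rho = 0.48, permutation p = 0.015 and 0.011, adjusted 0.098 and 0.074). For *Tfrc* the relation with the macrophage score was r = -0.43 among early and 0.72 among established mice (pooled r = 0.19, not passing).

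**Figure D4:**
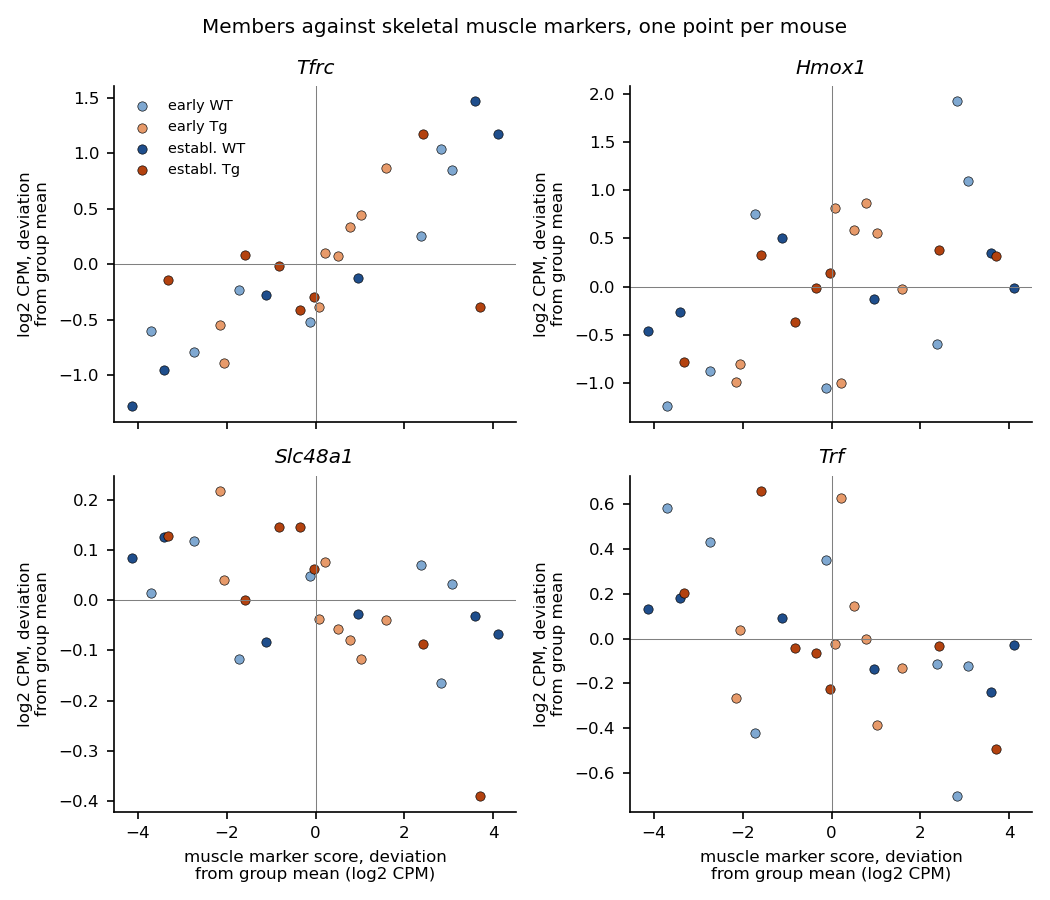
Deviation of Tfrc, Hmox1, Slc48a1 and Trf from their group mean (vertical axes, log2 CPM) against the deviation of the muscle marker score (horizontal axis, mean log2 CPM of its genes), with 1 point per mouse and colours for the 4 groups. Tfrc rises along the muscle score over 28 mice (r = 0.81), Hmox1 rises less closely, and Slc48a1 and Trf decline.

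The genes whose deviations were most like those of a member were read from 14572 genes with a mean of at least 1 CPM, over 28 mice and as a description. For *Tfrc* they were the glycolytic and energy genes *Ak1*, *Pgm1* and *Ldha* (r = 0.92, 0.92 and 0.91). *Fth1* was nearest to *Plac9*, *Gsn* and *Tns1* (0.83, 0.81 and 0.81), and *Trf* to *Dhrs3*, *Fbln1* and *Arhgap39* (0.86, 0.85 and 0.84). *Slc11a1* was nearest to *Irf2*, *Nfam1* and *Plekho2* (0.83, 0.78 and 0.74). The nearest gene to *Ftl1* was *Gm10252* (0.86), which overlaps its first exon on the opposite strand, so that their reads cannot be told apart without a stated strand setting. Among the members themselves, *Fth1* and *Ftl1* were most alike (r = 0.60) and *Hmox1* and *Slc48a1* most opposed (r = -0.61).

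Related genes were then read from fixed lists. In the uptake step ahead of the members, *Cd163* (chr6:124281606-124307560, plus strand) rose in established Fosl-2 Tg mice, from 23.7 to 42.7 CPM in WT to 55.2 to 90.6 CPM, without overlap (log2 fold change 1.07 ± 0.14, SE, FDR 0.0047, edgeR). In early mice its log2 difference was -0.38 ± 0.11 (FDR 0.520), and the change between cohorts was 1.44 ± 0.18 (FDR 6.7e-05, edgeR). The *Cd163* fold was 2.09 in established mice, beside 1.66 for *Fth1* and 1.24 for *Ftl1*. Of the 4 uptake genes only *Cd163* passed in the established cohort, where 6.51% of all genes passed. *Lrp1*, the receptor for heme-hemopexin, gave -0.12 ± 0.21 (FDR 0.727), and the plasma carriers *Hp* and *Hpx* averaged at most 4.96 and 1.79 CPM in any group.

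Heme synthesis was tested with 10 genes and 0 passed in either cohort or in the interaction by edgeR, with 0 early, 1 established and 2 interaction terms below an unadjusted p of 0.05, where 6.06%, 26.6% and 25.3% of all genes were. Its established median log2 difference was -0.15. Of 9 further heme breakdown and transport genes, 0 passed within a cohort by edgeR, with 0 early and 1 established below an unadjusted p of 0.05. *Slc46a1*, a folate and heme importer, passed in the interaction alone (-0.97 ± 0.28, SE, FDR 0.035, edgeR), as 1 of 9 where 7.43% of all genes passed. Its established mean was 6.06 CPM in WT and 3.92 CPM in Fosl-2 Tg mice. Of 17 further iron transport and storage genes, 14 were tested and 0 passed by edgeR, with 1 early and 6 established below an unadjusted p of 0.05, against 6.06% and 26.6% of all genes. *Ncoa4*, the receptor that delivers ferritin to lysosomes, gave -0.10 ± 0.13 in established mice (FDR 0.669).

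Iron regulation was tested with 10 of 12 genes. In established mice 1 of 10 passed by edgeR, where 6.51% of all genes passed. The interaction called 1 gene as positive and 1 as negative, where 7.43% of all genes passed. Below an unadjusted p of 0.05 in established mice by edgeR were 1 as higher and 2 as lower, against 26.6% of all genes. *Bmp6*, the ligand that induces hepcidin in liver, fell in established Fosl-2 Tg mice, from 56.7 to 33.3 CPM on average (log2 fold change -0.76 ± 0.18, SE, FDR 0.029, edgeR). *Hfe*, the hemochromatosis protein, and *Neo1*, a receptor of the same pathway, passed in the interaction alone, with 0.58 ± 0.17 (FDR 0.036) and -0.71 ± 0.19 (FDR 0.024, edgeR). *Ireb2* and *Aco1*, which encode the iron regulatory proteins, gave -0.01 ± 0.11 (FDR 0.963) and -0.09 ± 0.06 (FDR 0.387) in established mice. *Hamp*, the gene for hepcidin, averaged at most 0.05 CPM in any group.

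Regulators of heme-responsive transcription were read together with targets of NRF2. *Bach1*, the heme-binding repressor of *Hmox1* and the ferritin genes, rose in established Fosl-2 Tg mice, from 52.4 to 62.6 CPM in WT to 68.9 to 116 CPM, without overlap (log2 fold change 0.53 ± 0.11, SE, FDR 0.021, edgeR), and passed in the interaction (0.60 ± 0.13, FDR 0.011). *Slc7a11*, the cystine importer, passed in the interaction alone (-1.42 ± 0.42, FDR 0.040, edgeR). Of the 11 genes in this list, *Bach1* was the single one past the threshold within a cohort. In established mice 6.51% of all genes passed. The interaction called 1 gene as positive and 1 as negative, where 7.43% of all genes passed. Below an unadjusted p of 0.05 by edgeR were 0 early (6.06% of all genes). In established mice 2 were below it as higher and 1 as lower (26.6% of all genes). The established median log2 difference was -0.02.

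**Figure D5:**
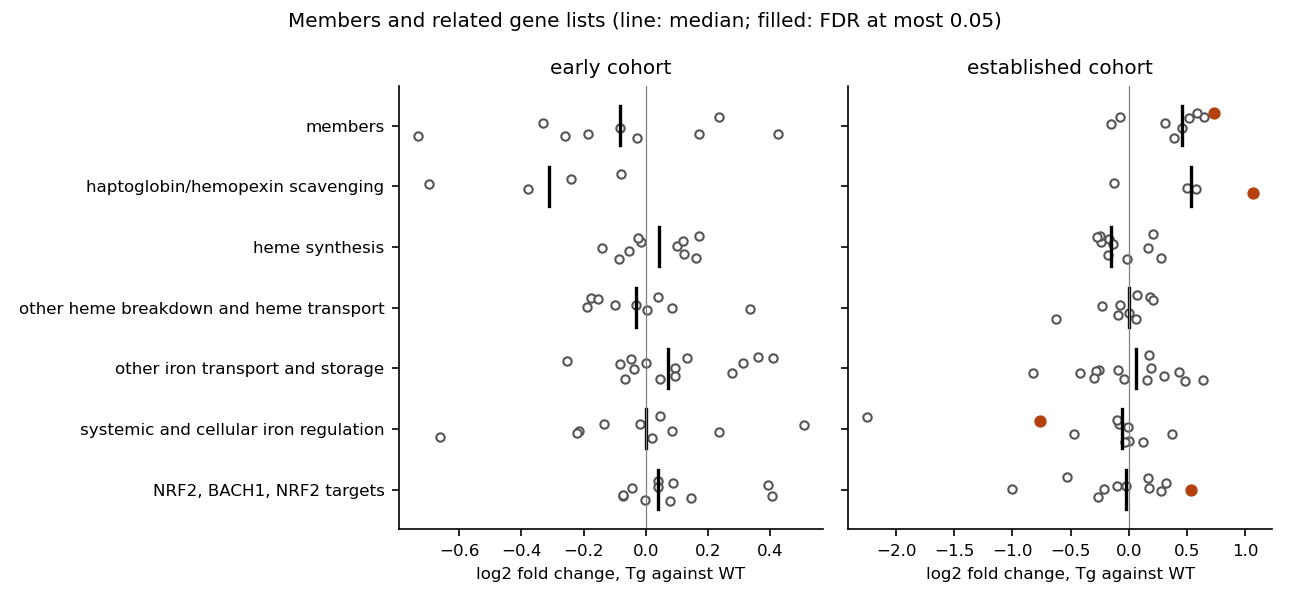
Log2 fold change between Fosl-2 Tg and WT mice (horizontal axes, which differ in range) of the tested genes of each list, in the early and the established cohort, with 1 point per gene, a line at the list's median and filled points at an FDR of at most 0.05. No gene is filled in the early cohort, and Fth1, Cd163, Bmp6 and Bach1 are filled in the established cohort.

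Erythroid markers summed to 9.52 to 21.0 CPM in established WT and 10.8 to 128 CPM (median 18.3) in established Fosl-2 Tg mice. The early sums were 9.20 to 34.6 CPM in WT and 8.28 to 12.1 CPM in Fosl-2 Tg mice. No erythroid marker passed within a cohort by edgeR, with 2 of 3 tested early and 3 of 5 established below an unadjusted p of 0.05. All 3 were lower on average in early and all 5 higher in established Fosl-2 Tg mice (established median log2 difference 2.25). The filter was applied in each fit, so that a gene may enter through the group where it is high. These directions are therefore a description only. In the interaction all 6 were positive (median 4.23) and 4 passed, all of them globin genes, against 7.43% of all genes. Globin genes were read because *Cd163* takes up haptoglobin-bound hemoglobin. Their mRNA does not measure the hemoglobin taken up, and the part of blood left in the tissue was not tested. *Hbb-bs* ranged from 0.42 through 1.39 to 5.98 CPM in established WT and from 1.08 through 4.22 to 64.6 CPM in established Fosl-2 Tg mice, a log2 difference of 3.06 ± 0.91 (SE, FDR 0.059, edgeR). In early mice it ranged from 0.16 to 11.4 CPM in WT and from 0.59 to 2.06 CPM in Fosl-2 Tg mice. The interaction passed for *Hbb-bs* at 5.33 ± 1.10 (FDR 0.0069) and for *Hba-a1* at 3.50 ± 0.91 (FDR 0.023, edgeR). Within groups, *Fth1* stood at r = -0.09 and rho = 0.02 with the erythroid score (permutation p = 0.674 and 0.939, adjusted 0.872 and 0.975). Neutrophil markers summed to at most 6.90 CPM in any mouse.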

How the data were processed

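The deposited values are raw counts per gene, which the authors obtained with featureCounts after STAR mapping of paired-end reads to GRCm39 (GENCODE M26). The strand setting and the handling of reads with several positions are not given in the sources used here. Genes were named with GENCODE M39. From the counts, edgeR 4.0.16 in R 4.3.3 (TMM; filterByExpr with minimum count 10 and minimum total 15; quasi-likelihood test without covariates; Benjamini-Hochberg adjustment over all genes tested; FDR of at most 0.05) compared genotypes within cohorts and by interaction. Log2 CPM used a prior count of 2. Fits were tested on simulated data whose planted changes were larger than any member's difference within a cohort. They do not show the power for differences of the members' size. No 2 libraries of a group agreed within sampling noise.

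The members and lists were chosen with earlier results of these data known. All 9 members were named, and listed genes past the threshold, with *Cd163*, *Fosl2* and the nearest genes. *Spic*, *Ncoa4*, *Ireb2*, *Aco1*, *Hamp*, *Lrp1*, *Hp*, *Hpx*, *Acta1* and *Ckm* were named from the lists after their values were seen.

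Alternatives were DESeq2 1.42.0, limma 3.58.1 voom with quality weights, other scalings and filters, 1 fit of all libraries, sex, established females only, marker genes removed, marker scores as covariates, a replicate block and each mouse left out. Library number as a covariate and leaving out the first 6 early libraries, also for the muscle relations, were chosen after seeing the data. Same-numbered early mice had positively correlated deviations (0.13 to 0.36 in 7 of 7 pairs), and the labels give no pairing. In none of these 7 pairs was the same-numbered Fosl-2 Tg mouse the one most like the WT mouse. A block on these numbers changed no early call. Figures were drawn with matplotlib 3.10.9.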

Additional observations from a re-analysis of the deposited data

Results flagged for a closer look

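Among 36 groups of mice, 3 held a mouse farther from the others than Dixon's 95% limit allows, where chance gives about 1 in 20. *Fth1* in early Fosl-2 Tg replicate 1 was at 556 CPM, with the next mouse at 344 CPM. *Trf* was highest in the same mouse, at 19.2 CPM, with the next at 13.7 CPM. *Tfrc* in established Fosl-2 Tg replicate 7 was at 81.3 CPM, with the next at 38.0 CPM. The genotype difference differed between cohorts for *Fth1*, by 0.99 on the log2 scale (FDR 0.019, interaction term of edgeR), and for *Trf*, by 1.11 (FDR 0.012).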

How the results depend on the processing

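The early count of members called was 0 in all 13 alternative fits and in all 15 that left out 1 mouse (range 0 to 0). The established count of 1 became 4 with DESeq2 and with the muscle score as a covariate, 3 with upper-quartile scaling, 5 with limma voom, and 2 with the replicate block (which drops Fosl-2 Tg replicate 7, and early Fosl-2 Tg replicate 8 in the early and interaction fits), with all 28 libraries in one fit and with sex as a covariate. It ranged from 1 to 2 over mice left out, being 2 without Fosl-2 Tg replicate 4. *Fth1* was called in each of these. The interaction count of 2 became 4 with DESeq2, upper-quartile scaling, a filter at a mean of 1 CPM, the muscle score and the replicate block, 5 with limma voom, 3 with RLE scaling and with library number, 0 with the macrophage score and 1 (*Slc11a1*) without the first 6 early libraries. Over mice left out it ranged from 2 to 4, being 4 without early WT replicate 5, established Fosl-2 Tg replicate 3 or 4. *Fth1* and *Trf* were called in all 28 of those. The causes were not tested. Of the 54 relations, 7 passed on r with either prior count. Same-numbered established mice had correlations of -0.22 to 0.69, 4 of 6 above 0.1, and WT replicates 1 and 4 were most like their own number. The labels give no pairing, so the block counts of both cohorts rest on replicate numbers alone.

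Some members that were not called changed sign. Early *Hmox1* (log2) was -0.96 with the macrophage score, 0.54 with limma voom, 0.19 with the replicate block, 0.015 with library number, and ranged from -0.23 to 0.41 over mice left out. Early *Ftl1* was 0.041 with the muscle score, 0.11 with the macrophage score, 0.00017 with library number, 0.053 without the first 6 libraries, and -0.064 to 0.032 over mice left out. With the macrophage score, early *Blvrb* was 0.034, *Slc11a1* 0.11, *Fth1* 0.36 and *Tfrc* -0.23, and the interaction was -0.11 for *Blvrb* and -0.013 for *Tfrc*. Early *Tfrc* was -0.12 with the muscle score. Established *Blvrb* was 0.043 with limma voom and -0.15 to 0.012 over mice left out. The *Slc40a1* interaction was -0.13 with limma voom, -0.025 with early males set against established females only, -0.068 with the muscle score and -0.14 to 0.23 over mice left out. The cause was not tested. *Slc11a1* had the fewest reads of the members, down to 33 in early Fosl-2 Tg replicate 2.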
